A study of Mus musculus with 24 samples.

Results

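The ATP-binding cassette (ABC) genes described here are the 43 mouse genes of subfamilies A to G whose symbol begins with Abc, out of 40481 genes measured in each tissue. They are what remains of 50 such symbols once Abca1, Abcg1, Abcg5, Abcg8, Abcb1a, Abcc2 and Abcb11 are set aside. The genes set aside include sterol exporters and some exporters of drugs, conjugates and bile salts, while other exporters of these kinds are among the members. The 43 members comprise 15 genes of subfamily A, 8 of subfamily B, 9 of subfamily C, 4 of subfamily D, 4 of subfamilies E and F, and 3 of subfamily G.

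ABC proteins bind and hydrolyse ATP, and most use it to pump a substrate across a membrane. In hepatocytes and enterocytes they export phospholipid, bile salts, drugs and their glutathione, glucuronide and sulphate conjugates, and members in peroxisomes, mitochondria and lysosomes move fatty acyl-CoA, haem or iron-sulphur intermediates, peptides and cobalamin. Several plasma membrane members are under the control of nuclear receptors that sense sterols, bile acids and foreign compounds. The proteins of subfamilies E and F have no membrane-spanning part and act on ribosomes.

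RNA was sequenced from ileum and liver of C57BL/6 mice, all of which had lost 75% of the bowel by resection. The 4 groups in each tissue were Villin-Cre mice given GW3965, Villin-Cre mice given vehicle, Abca1 fl/fl (floxed) mice given GW3965 and floxed mice given vehicle, with 3 libraries in each and 24 in all. In Villin-Cre mice the floxed Abca1 gene, which encodes a cholesterol exporter, is deleted in intestinal epithelium, where the Villin promoter drives Cre, and is left intact elsewhere, the liver included. GW3965 is a synthetic compound that activates the liver X receptors (LXR). Over the last 5 of 10 weeks after surgery, mice received it orally 2 times a week (1 mg/kg/day) in 0.5% carboxymethyl cellulose. The title of the study places its interest in activation of LXR within the intestine at a low oral dose. No label ties a library to an animal, and unresected mice are not among the groups compared.

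Levels are CPM, the reads of a gene scaled to 1000000 reads assigned to genes, and are given per library or as mean ± SD with n = 3 libraries. Differences are log2 fold changes ± SE on the log2(CPM + 0.5) scale, on which changes of weakly expressed genes come out smaller, from limma with Benjamini-Hochberg adjustment over all genes tested in a tissue and a threshold of 0.05. Depth was 17.0 to 24.2 M assigned reads in ileal and 26.5 to 32.3 M in liver libraries. Even numbers made up 68.2 to 74.8% of the values of 1 to 4 reads, so reads were not counted independently of each other, and counting alone can take the variance between libraries above the Poisson variance. Most libraries of a group lay close to each other. The variance between them was 2.64 to 4.24 times the Poisson variance in ileum and 2.58 to 3.44 times in liver, against 12.0 to 61.1 and 7.54 to 55.9 times between groups. Replicate 3 of floxed mice given GW3965 stood apart in the ileum (8.42 to 8.80 times), and replicate 1 of the same group in the liver (10.6 to 10.7 times). Since nothing says that the close libraries came from separate animals, the p-values rest on a spread between libraries that may be technical, and each set of calls appears as well with those libraries averaged to 1 unit, which leaves 5 units per tissue. The deleted gene Abca1 averaged 53.8 ± 0.158, 28.3 ± 2.47, 372 ± 105 and 57.2 ± 2.83 CPM in the ileum of Villin-Cre mice given GW3965, Villin-Cre mice given vehicle, floxed mice given GW3965 and floxed mice given vehicle. Summed enterocyte markers reached 41298 to 41929.6 CPM in ileum of Villin-Cre mice given GW3965 and 13618 to 13712 CPM in ileum of floxed mice given vehicle, and hepatocyte markers 59813 to 61064 and 81122 to 82980.3 CPM in liver of the same groups. In whole tissue, fewer cells of a type and less RNA per cell cannot be told apart.

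Of the 43 members, 38 reached 0.5 CPM in at least 3 ileal libraries and were tested there, 35 were tested in the liver and 34 in both. Abca12, Abca13, Abcc8 and Abcg4 were tested in ileum alone, and Abcc12 in liver alone. Abca15, Abca16, Abca17 and Abcb5 were tested in neither. The highest of these values was 0.827 CPM, for Abca17 in a liver library, and Abcb5 had 0 reads in every liver library, which allows up to 0.113 CPM in the shallowest of them by counting error. Per kb of exon, which is the scale on which genes can be compared, high levels in ileum of floxed mice given vehicle were those of Abcf1 (26.6 ± 1.06 CPM per kb) and Abcd3 (25.0 ± 0.667). In liver of the same mice, Abcd3 (87.4 ± 1.07 CPM per kb), Abcc3 (79.7 ± 0.952), Abca6 (55.6 ± 1.22), Abcb4 (53.7 ± 0.697) and Abcc6 (43.6 ± 0.316) led. ABCD3 carries bile acid intermediates and fatty acyl-CoA into peroxisomes, ABCC3 exports glucuronides and bile salts across the basolateral membrane, and ABCB4 moves phosphatidylcholine into bile.

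The levels of the members in ileum and liver differed widely in a description without a test, since the tables of the tissues were deposited separately. All 12 ileal libraries lay above all 12 liver libraries for 10 members (among them Abca7, Abca14, Abcb9, Abcb10, Abcc8, Abcc10, Abcd4, Abcg2 and Abcg4), below them for 14, and the ranges overlapped for 19. The share of all genes whose libraries separate in this way was not computed, so these counts cannot be read as particular to the members. Abca6 ranged from 0.165 to 2.81 CPM over ileal libraries and from 248 to 308 CPM over liver libraries. Abcb4 ranged from 0.323 to 10.9 CPM in ileum and from 440.2 to 576 CPM in liver, so that even the ileal libraries with the most Abcb4 were far below any liver library. Abcg2, an apical exporter of drugs, urate and sulphates, had 107 to 237 CPM in ileum and 32.7 to 57.9 CPM in liver. Some members are neighbours in GRCm38. Abcb1b (ENSMUSG00000028970, chromosome 5, 8798147 to 8866315, plus strand) and Abcb4 (ENSMUSG00000042476, chromosome 5, 8893717 to 8959231, plus strand) follow each other, Abca8b, Abca8a, Abca9, Abca6 and Abca5 fill a run on the minus strand of chromosome 11 (109932190 to 110337716), and Abca14, Abca15 and Abca16 one on chromosome 7 (120203961 to 120544813). Values of near copies (Abcb1b beside Abcb1a, Abca8a beside Abca8b, Abca14 to Abca16) are uncertain, since reads could be split between them. Exons of Abca3, Abca8b, Abcb1b, Abcb9, Abcb10, Abcc9 and Abcc10 overlap a gene on the other strand, and the sources used here give no strand setting for the counting.

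**Figure D1:**
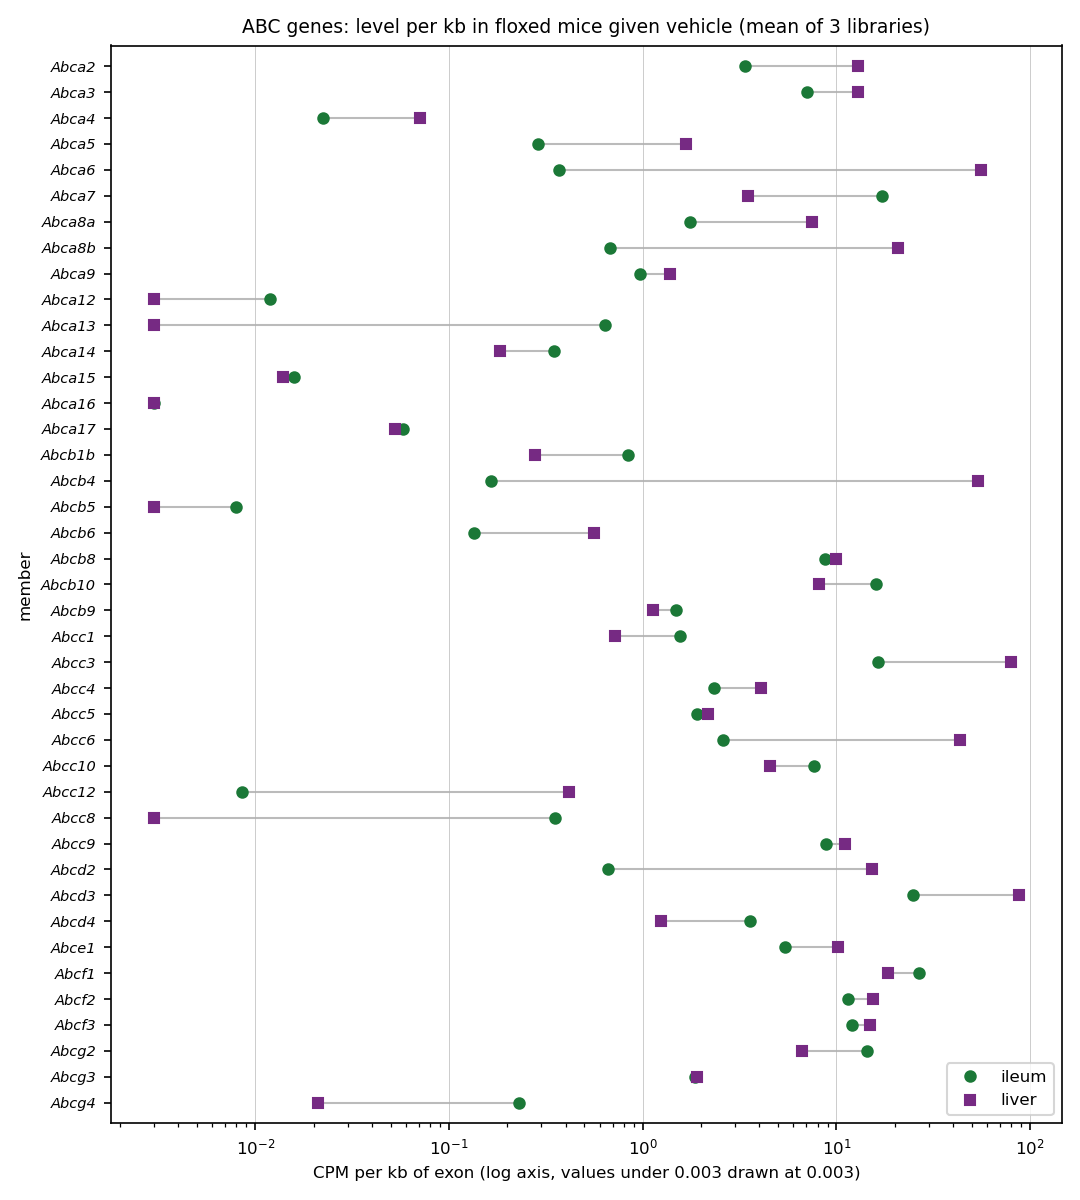
Level per kb of exon of the members reported by name in floxed mice given vehicle (log axis, mean of 3 libraries, circles for ileum and squares for liver). Abcd3 (87.4 CPM per kb) and Abcc3 (79.7) were the highest in liver, and Abcf1 (26.6) and Abcd3 (25.0) lead those shown for ileum.

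In the ileum, GW3965 raised the neighbours Abcb1b and Abcb4 in Villin-Cre mice by far more than in floxed mice, raised Abcc5 in both genotypes, and lowered Abcc9, Abcc1 and Abcc3 in Villin-Cre mice. In Villin-Cre mice, 14 members were higher with GW3965 and 13 lower, of 38 tested, where 21.5% of all 18656 genes tested were higher and 31.1% lower. In floxed mice, 13 were higher and 9 lower, where 14.7% and 20.9% of all genes were. The median change of the tested members was 0.09 in Villin-Cre mice and 0.26 in floxed mice, beside -0.11 and -0.08 over all genes. The interaction, the GW3965 effect of Villin-Cre mice less that of floxed mice, passed the threshold for 10 members upward and 10 downward, where 14.6% and 18.4% of all genes did. With the close libraries averaged, which leaves a single residual degree of freedom, 4 members were higher and 3 lower in Villin-Cre mice (Abcb1b, Abcb4, Abcc5 and Abcd3, against Abcc1, Abcc3 and Abcc9), 2 higher and 1 lower in floxed mice (Abcc5 and Abcc6, against Abca13), and limma called no gene for the interaction, with 12 members at an unadjusted p under 0.05. Of all genes, 2.72% were then higher and 4.04% lower in Villin-Cre mice, and 0.584% and 0.15% in floxed mice. The map of members by library shows that libraries of a group mostly share a colour, and that the columns of Villin-Cre mice given GW3965 differ most from the others for Abcb1b, Abcb4, Abcc1 and Abcc9.

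**Figure D2:**
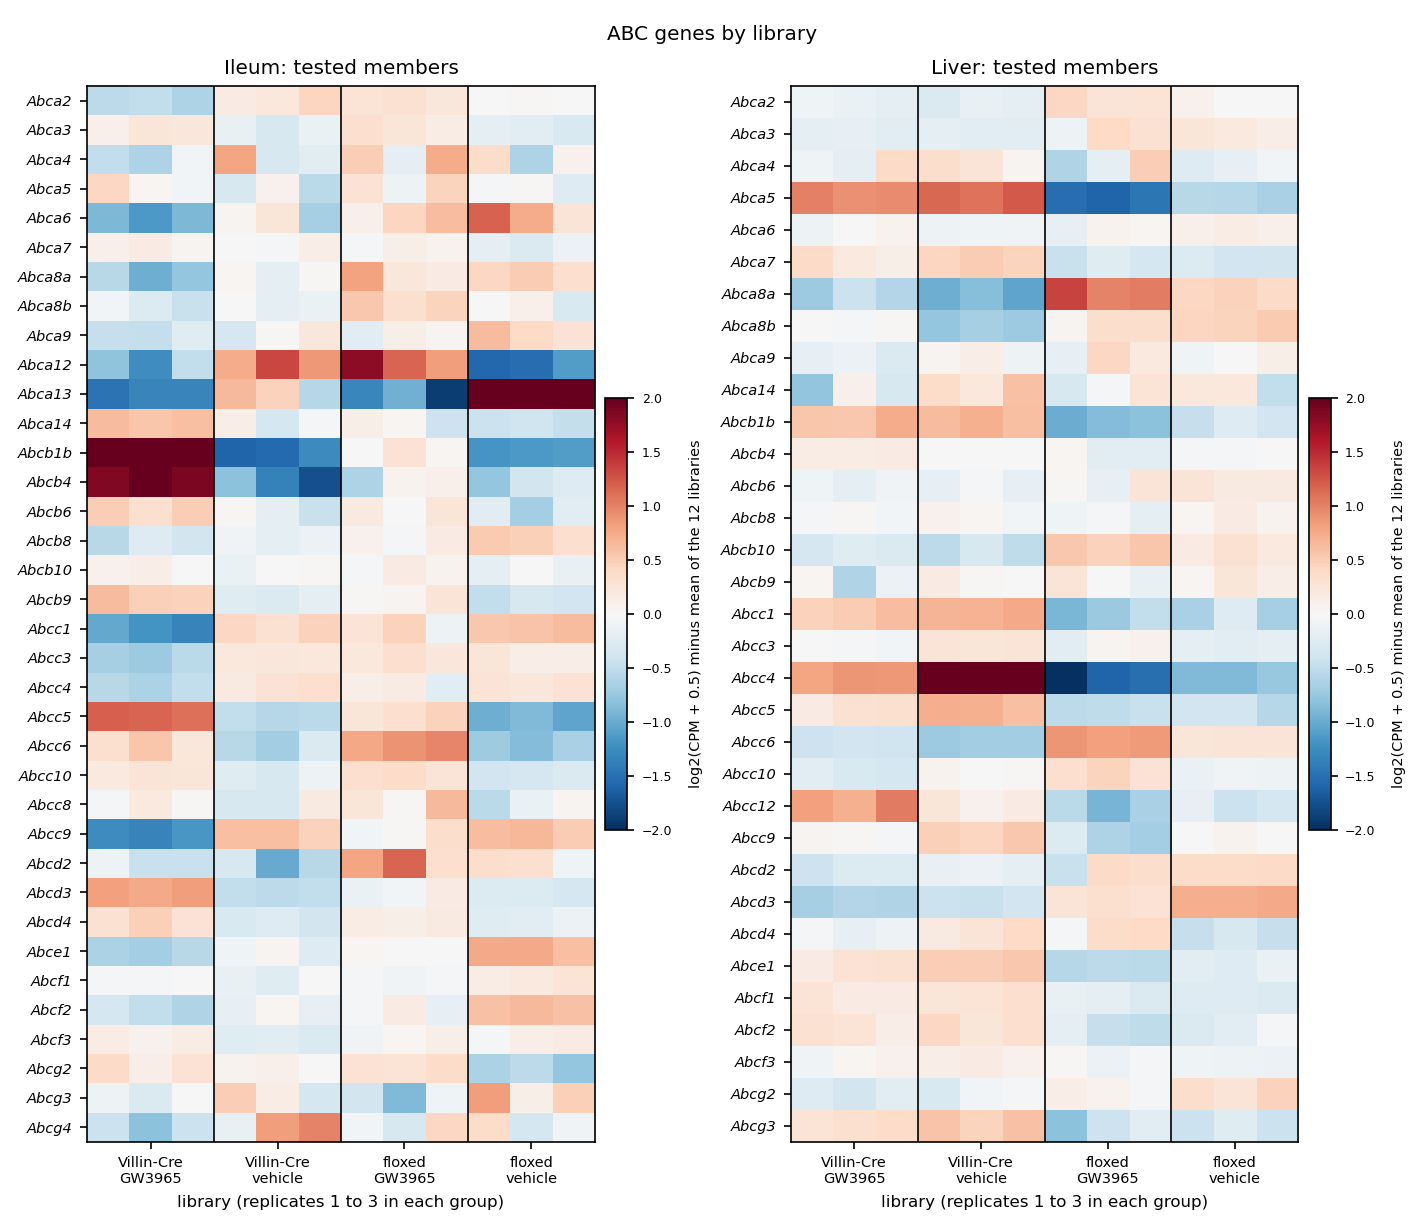
Level of the tested members reported by name in each library of ileum (left) and liver (right), as log2(CPM + 0.5) minus the mean over the 12 libraries of the tissue; colours are clipped at 2 on either side. Abcb1b and Abcb4 stand out in ileum of Villin-Cre mice given GW3965, and Abcc4 and Abca5 in liver of both Villin-Cre groups.

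Between genotypes in the ileum, 5 members were higher and 14 lower in Villin-Cre than in floxed mice given vehicle, where 9.61% and 30.7% of all genes were, and 9 were higher and 14 lower with GW3965, where 13.6% and 38.3% were. These splits depend on the scale. The median of all genes stood at -0.18 with vehicle and -0.24 with GW3965, and rescaling each library by the median of its gene ratios moved it by 0.21 and 0.24. After rescaling, 13 members were higher and 6 lower with vehicle, and 16 higher and 11 lower with GW3965. Rescaled changes are therefore given beside many of the differences between genotypes, and those printed alone are before rescaling. With the close libraries averaged, limma called no member between genotypes with vehicle, with 6 at an unadjusted p under 0.05, where 0.0214% of all genes were higher and 0.0107% lower, and with GW3965 Abcb1b and Abcb4 were higher and Abcc3 and Abcc9 lower, where 1.31% and 4.05% of all genes were. Without Villin-Cre vehicle replicate 3, 3 members were higher with vehicle, and without floxed vehicle replicate 2, 9 were lower. The comparisons of a tissue share groups, so that their values are given side by side and not counted as separate evidence.

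Among the plasma membrane members of subfamily B, Abcb1b encodes a P-glycoprotein of rodents that exports drugs and Abcb4 the phosphatidylcholine translocator of the canalicular membrane. Abcb1b had 85.8, 94.8 and 91.6 CPM in ileum of Villin-Cre mice given GW3965 and 4.78, 4.97 and 6.14 CPM in those given vehicle, and 15.5, 19.1 and 15.9 CPM in floxed mice given GW3965 against 6.52, 6.71 and 6.83 CPM in those given vehicle. Every library with GW3965 lay above every library with vehicle, and the 3 of Villin-Cre mice stood highest. The change was 3.98 ± 0.11 in Villin-Cre mice (limma adjusted p = 4.6e-14, 17.1-fold in CPM) and 1.26 ± 0.11 in floxed mice (adjusted p = 1.3e-07), with an interaction of 2.72 ± 0.16 (limma adjusted p = 2.0e-09). Abcb4 had 9.54, 10.9 and 9.71 CPM in Villin-Cre mice given GW3965, against 1.08, 0.584 and 0.323 CPM with vehicle, and 1.31, 2.43 and 2.48 CPM in floxed mice given GW3965, against 1.14, 1.65 and 1.84 CPM with vehicle. Here the groups of floxed mice overlapped, while all 3 libraries of Villin-Cre mice given GW3965 lay above the rest. Abcb4 changed by 3.23 ± 0.26 in Villin-Cre mice (limma adjusted p = 1.7e-08), with an interaction of 2.92 ± 0.37. The change in floxed mice, 0.32 ± 0.26, did not pass the test. The near copy of Abcb1b among the genes set aside, Abcb1a, averaged 2840.4 ± 19.9 CPM in Villin-Cre mice given GW3965 and 104 ± 2.81 CPM in those given vehicle, and the level of Abcb1b was 3.02 to 3.36% and 4.60 to 6.02% of it. In floxed mice it was 3.04 to 3.66% with GW3965 and 3.45 to 3.95% with vehicle. The ranges overlapped in floxed mice, and in Villin-Cre mice the share was lower with GW3965. Between genotypes with vehicle, Abcb1b was lower in Villin-Cre mice by 0.32 and Abcb4 by 0.85, and neither was called after rescaling (-0.09 and -0.68). The first call was lost without Villin-Cre vehicle replicate 1 or 2 or floxed vehicle replicate 1, 2 or 3 (-0.33 to -0.25), and the second lost without Villin-Cre vehicle replicate 3 or floxed vehicle replicate 2 or 3 (-0.80 to -0.62). How many Abcb1b reads came from Abcb1a was not tested.

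The 250 bases before the RefSeq starts of Abcb1b and Abcb4 are printed because both neighbours rose with GW3965 in Villin-Cre ileum. They lie at chr5:8797897-8798146 (plus strand) and chr5:8893471-8893720 (plus strand) in GRCm38.p6, written 5′ to 3′ on the strand of the gene.
Abcb1b: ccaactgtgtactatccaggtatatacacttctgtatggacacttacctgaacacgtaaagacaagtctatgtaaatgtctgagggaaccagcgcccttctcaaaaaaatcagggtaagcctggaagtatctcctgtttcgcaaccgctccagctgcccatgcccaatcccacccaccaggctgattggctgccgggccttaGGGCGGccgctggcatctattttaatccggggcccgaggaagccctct
Abcb4: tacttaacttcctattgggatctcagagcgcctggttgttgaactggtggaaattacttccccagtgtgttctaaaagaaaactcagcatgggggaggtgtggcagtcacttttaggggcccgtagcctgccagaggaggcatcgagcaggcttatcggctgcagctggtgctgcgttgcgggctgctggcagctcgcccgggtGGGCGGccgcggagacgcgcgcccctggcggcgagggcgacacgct

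Capitals mark GGGCGG, the GC box, searched on both strands together with AGGTCA, the core that nuclear receptors bind, direct repeats of AGGTCA with 1 or with 4 bases between the copies, the antioxidant element core TGACNNNGC, and the E-box CACGTG. Both promoters hold a single GC box and none of the other letters. Over all 32851 RefSeq promoters, searched in the same length of 250 bases, GGGCGG was found in 32.7%, AGGTCA in 14%, the repeat with 1 base between in 0.0335%, that with 4 in 0.0152%, TGACNNNGC in 10.2% and CACGTG in 6.02%. A longer motif holds the shorter AGGTCA, so these shares overlap. Of 38 promoter entries for 32 members, 19 held GGGCGG, 5 AGGTCA (entries of Abcb6, Abcc10 and Abcg2) and 0 the repeat with 4 bases between, a form that LXR can bind. That exact repeat is so rare over all promoters (0.0152%) that a 0 here cannot show whether LXR binds these promoters.

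The multidrug resistance proteins of subfamily C split in direction. Of 6 tested in the ileum, 3 rose and 3 fell with GW3965 in Villin-Cre mice, where 21.5% and 31.1% of all genes did. In floxed mice 3 rose and 1 fell, where 14.7% and 20.9% of all genes did. The medians of the 6 were -0.19 and 0.37. Abcc5, an exporter of cyclic nucleotides and nucleotide analogues, had 93.0, 90.9 and 86.8 CPM in Villin-Cre mice given GW3965 against 28.4, 26.8 and 27.5 CPM with vehicle, and 47.8, 50.8 and 55.8 CPM in floxed mice given GW3965 against 20.2, 21.5 and 19.1 CPM with vehicle. No groups overlapped, and the order ran from Villin-Cre with GW3965 through floxed with GW3965 and Villin-Cre with vehicle to floxed with vehicle. Abcc5 rose by 1.69 ± 0.07 in Villin-Cre mice (limma adjusted p = 9.1e-12) and by 1.32 ± 0.07 in floxed mice (adjusted p = 5.5e-10), with an interaction of 0.37 ± 0.10. Abcc6, whose loss causes soft tissue calcification through lack of ATP release, showed the reverse order of genotypes with GW3965, at 31.6, 37.4 and 29.7 CPM in Villin-Cre and 43.4, 47.6 and 49.98 CPM in floxed mice. With vehicle it had 17.1, 15.4 and 20.6 CPM in Villin-Cre and 15.3, 13.6 and 15.9 CPM in floxed mice, and every GW3965 library lay above every vehicle library. It rose by 0.88 ± 0.11 in Villin-Cre mice and 1.62 ± 0.11 in floxed mice, and the interaction was -0.75 ± 0.16 (limma adjusted p = 0.0015). Abcc10, another exporter of conjugates and drugs, rose by 0.45 in Villin-Cre and 0.66 in floxed mice.

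Abcc1, Abcc3 and Abcc4 fell with GW3965 in Villin-Cre mice. Abcc1, an exporter of glutathione conjugates and leukotriene C4, had 7.41, 6.56 and 5.92 CPM in Villin-Cre mice given GW3965 against 21.02, 19.5 and 21.7 CPM with vehicle, and 19.1, 21.7 and 14.6 CPM in floxed mice given GW3965 against 22.9, 23.5 and 24.5 CPM with vehicle. Abcc3 averaged 53.1 ± 3.41 CPM in Villin-Cre mice given GW3965, 96.6 ± 0.594 CPM in those given vehicle, 99.7 ± 4.99 CPM in floxed mice given GW3965 and 93.9 ± 4.05 CPM in those given vehicle. For Abcc1, Abcc3 and also Abcc4, an exporter of bile salts and nucleotides, the 3 libraries of Villin-Cre mice given GW3965 lay below all 9 others. The changes in Villin-Cre mice were -1.58 ± 0.13, -0.86 ± 0.06 and -0.83 ± 0.12, with interactions of -1.21, -0.94 and -0.60 in the order Abcc1, Abcc3 and Abcc4. In floxed mice Abcc1 fell by 0.36, a call lost after rescaling (-0.28) and lost without floxed GW3965 replicate 3 or floxed vehicle replicate 1, 2 or 3 (-0.39 to -0.21), while Abcc3 (0.08) and Abcc4 (-0.24) did not pass the test.

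Abcc9 encodes SUR2, the regulatory subunit of ATP-sensitive potassium channels of muscle and vessels. It had 19.98, 19.1 and 21.3 CPM in ileum of Villin-Cre mice given GW3965 against 74.3, 73.7 and 67.2 CPM with vehicle, and 46.6, 49.6 and 62.3 CPM in floxed mice given GW3965 against 74.7, 77.5 and 69.3 CPM with vehicle. The libraries with GW3965 lay below those with vehicle in each genotype, and the 3 of Villin-Cre mice lay lowest. Abcc9 fell by 1.81 ± 0.09 in Villin-Cre mice (limma adjusted p = 6.4e-11) and by 0.49 ± 0.09 in floxed mice (adjusted p = 5.2e-04), with an interaction of -1.32 ± 0.13. Smooth muscle and pericyte markers moved with it. All 10 tested were lower with GW3965 in Villin-Cre mice and 9 of 10 in floxed mice, where 31.1% and 20.9% of all genes were. None of the 10 markers was at 0 in a whole group. Their summed level was 1310.1 to 1330.3 CPM in Villin-Cre mice given GW3965, 8178 to 8428 CPM in those given vehicle, 3223 to 4801 CPM in floxed mice given GW3965 and 7631 to 7698 CPM in those given vehicle. Their part in the result was not tested. Abcc8, the SUR1 subunit of endocrine cells, ranged from 2.12 to 5.49 CPM and passed no test.

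**Figure D3:**
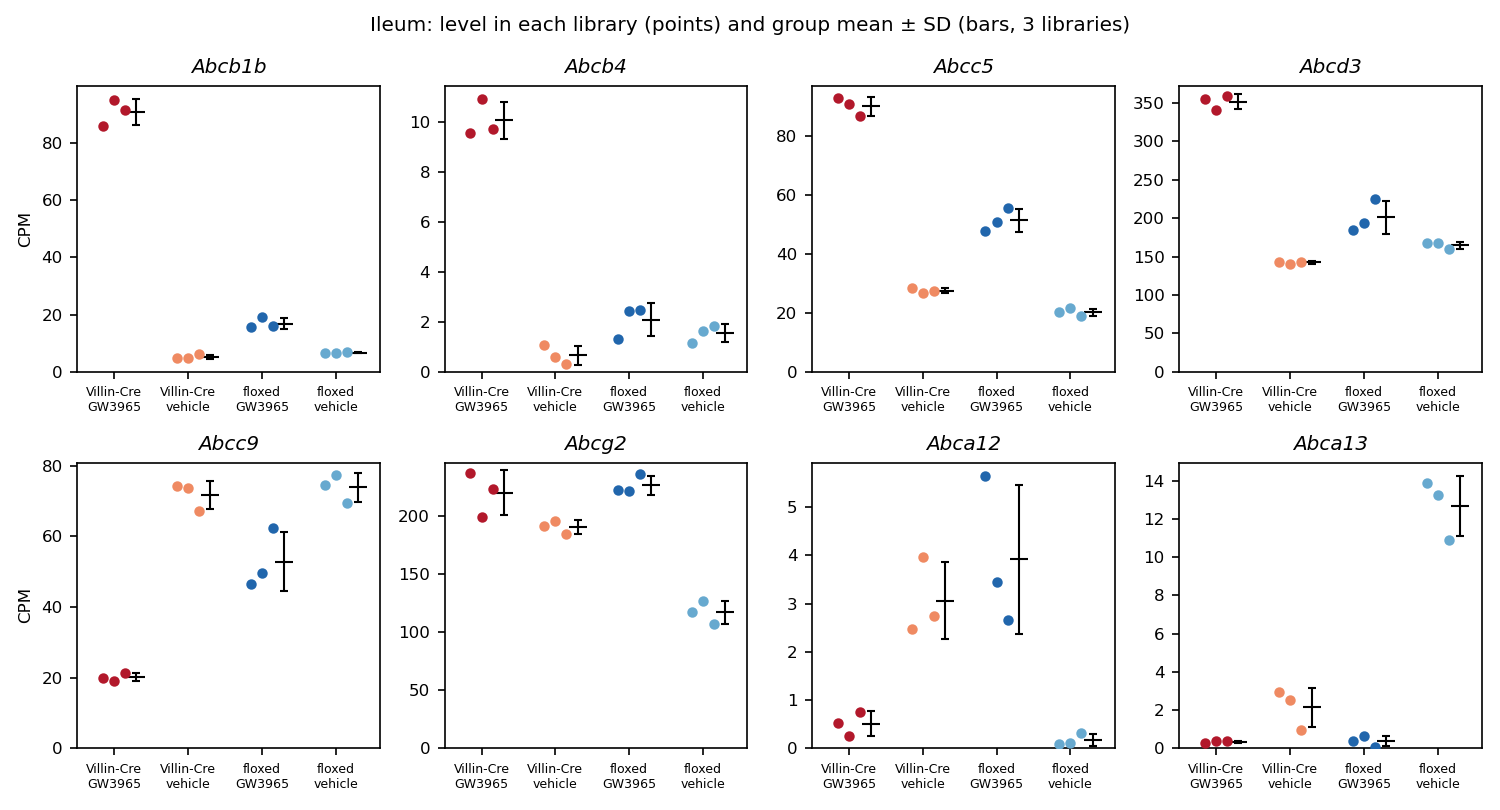
CPM of 8 members in each ileal library (points) with the group mean ± SD (n = 3), each panel starting at 0. Abcb1b, Abcb4, Abcc5 and Abcd3 are highest in Villin-Cre mice given GW3965 and Abcc9 is lowest there, Abcg2 is lowest in floxed mice given vehicle, Abca12 is low in Villin-Cre mice given GW3965 and in floxed mice given vehicle, and Abca13 is highest in floxed mice given vehicle.

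Subfamily A holds large transporters of lipids. Of 12 tested in the ileum, 2 rose and 5 fell with GW3965 in Villin-Cre mice, where 21.5% and 31.1% of all genes did. In floxed mice 5 rose and 1 fell, where 14.7% and 20.9% of all genes did. The medians of the 12 were -0.42 and 0.28. Abca12, which loads ceramides into the lamellar granules of skin, went in opposite directions in the genotypes. It had 0.520, 0.248 and 0.758 CPM in Villin-Cre mice given GW3965 against 2.47, 3.97 and 2.75 CPM with vehicle, and 5.64, 3.45 and 2.66 CPM in floxed mice given GW3965 against 0.0988, 0.118 and 0.315 CPM with vehicle. The changes were -1.83 ± 0.28 in Villin-Cre mice and 2.66 ± 0.28 in floxed mice, and the interaction of -4.49 ± 0.40 (limma adjusted p = 2.8e-07) was past the threshold. These are low levels, and no call of Abca12 was kept with the close libraries averaged. Abca13, a very large member of little known function, had 0.389, 0.622 and 0.0872 CPM in floxed mice given GW3965 against 13.9, 13.2 and 10.9 CPM with vehicle, and 0.283, 0.371 and 0.379 CPM in Villin-Cre mice given GW3965 against 2.93, 2.51 and 0.969 CPM with vehicle. The 3 libraries of floxed mice given vehicle lay above all 9 others. Abca13 fell with GW3965 by 3.97 ± 0.30 in floxed mice and 1.55 ± 0.30 in Villin-Cre mice, and was lower by 2.40 in Villin-Cre than in floxed mice given vehicle (-2.18 after rescaling). With GW3965 the genotypes did not pass the test (0.01).

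Other members of subfamily A moved less. Abca2, an endolysosomal transporter known from oligodendrocytes, averaged 19.1 ± 0.817 CPM in Villin-Cre mice given GW3965 and 34.0 ± 3.38 CPM with vehicle, a change of -0.81, and 33.9 ± 1.02 CPM in floxed mice given GW3965 against 28.2 ± 0.419 CPM with vehicle, a change of 0.26 that was lost without floxed GW3965 replicate 2 or floxed vehicle replicate 1 (0.24 to 0.26). Abca3, the surfactant lipid transporter of alveolar cells, rose by 0.39 in Villin-Cre and 0.48 in floxed mice. Abca4, the retinoid transporter of photoreceptors, passed no test, at 0.0947 to 0.513 CPM in the group means. Abca7, a phospholipid transporter of phagocytic cells among others, rose by 0.25 in floxed mice, and Abca14 by 0.67 in Villin-Cre mice. Of the neighbours on chromosome 11, Abca8a fell by 0.72 and Abca6 by 0.86 with GW3965 in Villin-Cre mice, Abca8b rose by 0.51 in floxed mice, and Abca5 and Abca9 passed no GW3965 test with all libraries. The call of Abca6 was lost without Villin-Cre GW3965 replicate 2 or Villin-Cre vehicle replicate 1 or 2 (-0.78 to -0.68), and that of Abca8b lost without floxed GW3965 replicate 1 or floxed vehicle replicate 3 (0.39 to 0.46). Abca9 was called lower in floxed mice without replicate 3 of the GW3965 group (-0.49). Abca6 averaged 0.244, 0.895, 1.43 and 2.01 CPM in Villin-Cre mice given GW3965, Villin-Cre mice given vehicle, floxed mice given GW3965 and floxed mice given vehicle. Its genotype difference with vehicle, -0.85, did not pass the test after rescaling (-0.66) and was lost without Villin-Cre vehicle replicate 3 or floxed vehicle replicate 1 or 2 (-0.84 to -0.58). That with GW3965, -1.36, passed both ways. Fibroblast markers were lower with GW3965 as well, 7 of 7 in Villin-Cre and 7 of 7 in floxed mice, with sums of 516 to 547 CPM in Villin-Cre mice given GW3965 against 1695 to 1810.0 CPM with vehicle, and 595 to 948 CPM in floxed mice given GW3965 against 1295 to 1341 CPM with vehicle, and none at 0. Over all genes, 31.1% were lower in Villin-Cre and 20.9% in floxed mice, and after rescaling 7 and 6 of the 7 markers were. Macrophage markers (5 of 6 and 6 of 6) and smooth muscle and pericyte markers (10 of 10 and 9 of 10) fell too. Enterocyte markers rose (12 of 12 and 11 of 12). The part of any marker list in the results for Abca6 and Abca8a was not tested.

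Subfamily D imports fatty acyl-CoA into peroxisomes, apart from Abcd4, which serves cobalamin export from lysosomes. Abcd3 had 355, 341 and 359 CPM in Villin-Cre mice given GW3965 against 143, 141 and 143 CPM with vehicle, and 185, 194 and 225 CPM in floxed mice given GW3965 against 167, 167 and 159.6 CPM with vehicle. GW3965 libraries lay above vehicle libraries in each genotype, and those of Villin-Cre mice above those of floxed mice given GW3965. Abcd3 rose by 1.30 ± 0.06 in Villin-Cre mice (limma adjusted p = 2.9e-11) and by 0.28 ± 0.06 in floxed mice (adjusted p = 0.0019), with an interaction of 1.02 ± 0.09. Abcd4 rose by 0.66 and 0.34 in Villin-Cre and floxed mice. Abcd2 was called in neither with all libraries, and was called higher in floxed mice without replicate 3 of the GW3965 group (0.78). Of 13 enzymes and import factors of peroxisomal fatty acid oxidation, 11 rose with GW3965 in Villin-Cre mice and 8 in floxed mice, where 21.5% and 14.7% of all genes did. None of the 13 fell in either genotype, and their medians were 0.73 and 0.47. Among them the thiolase Acaa1b averaged 82.0 ± 7.36 CPM in Villin-Cre mice given GW3965 against 4.23 ± 0.356 CPM with vehicle, and Hsd17b4, the multifunctional enzyme, 286 ± 2.54 CPM against 80.4 ± 5.23 CPM. Enterocyte markers rose too, 12 of 12 in Villin-Cre and 11 of 12 in floxed mice, with sums of 41298 to 41929.6 CPM in Villin-Cre mice given GW3965 against 19104 to 19553 CPM with vehicle, and 24284 to 26525 CPM in floxed mice given GW3965 against 13618 to 13712 CPM with vehicle. Their part in the rise of Abcb1b, Abcb4, Abcc5 and Abcd3 was not tested.

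Subfamily B also has members in mitochondria and lysosomes. In the ileum with GW3965, Abcb8 fell by 0.37 in floxed mice, and its fall of 0.27 in Villin-Cre mice was not called after rescaling (-0.15). The call of Abcb8 in Villin-Cre mice was also lost without Villin-Cre GW3965 replicate 1 or Villin-Cre vehicle replicate 1 or 3 (-0.26 to -0.18). Abcb6, a porphyrin transporter, rose by 0.64, a call lost without Villin-Cre GW3965 replicate 1 or 3 or Villin-Cre vehicle replicate 3 (0.52 to 0.61), and Abcb10, a member needed for haem synthesis, was called after rescaling and not before, at 0.22 in Villin-Cre and 0.26 in floxed mice. Of 14 genes of mitochondrial haem and iron-sulphur cluster synthesis, 2 rose and 4 fell with GW3965 in Villin-Cre mice, where 21.5% and 31.1% of all genes did. In floxed mice 1 rose and 7 fell, where 14.7% and 20.9% of all genes did. After rescaling, 3 rose and 2 fell in Villin-Cre mice, so that split turned, and 1 rose and 5 fell in floxed mice. The mitochondrial iron importer Slc25a37 was among those that rose, at 408 ± 16.4 CPM against 94.0 ± 1.79 CPM in Villin-Cre mice. Abcb9, the lysosomal peptide transporter, rose by 0.76 and 0.51.

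Of the 4 ribosome-acting members in the ileum, 1 rose and 2 fell with GW3965 in Villin-Cre mice (2 and 2 after rescaling), and 0 rose and 3 fell in floxed mice (0 and 3 after rescaling), where 31.1% and 20.9% of all genes fell. Between genotypes given GW3965, 0 were higher and 2 lower in Villin-Cre mice, and 2 and 1 after rescaling. Abce1, which splits ribosomes for recycling, averaged 12.7 ± 0.536 CPM in Villin-Cre mice given GW3965, 18.5 ± 2.02 CPM in those given vehicle, 19.97 ± 0.275 CPM in floxed mice given GW3965 and 32.6 ± 2.13 CPM in those given vehicle. With GW3965 it fell by 0.53 in Villin-Cre and 0.69 in floxed mice, and Abcf2 fell by 0.39 and 0.62. Abcf3 rose by 0.37 in Villin-Cre mice, and Abcf1, a factor of translation initiation, fell by 0.25 in floxed mice. All 4 were lower in Villin-Cre than in floxed mice given vehicle, but 2 were after rescaling, Abce1 (-0.80, -0.56 after rescaling) and Abcf2 (-0.70, -0.46 after rescaling). Crypt and dividing cell markers had the same order of groups as Abce1. Their summed level was 40.0 to 43.2 CPM in Villin-Cre mice given GW3965, 136 to 148 CPM in those given vehicle, 169 to 192 CPM in floxed mice given GW3965 and 396 to 437 CPM in those given vehicle. With GW3965 5 of 6 fell in Villin-Cre and 5 of 6 in floxed mice, none was at 0 throughout a group, and their part in the result was not tested. Of 8 tested genes of ribosome rescue and recycling, 4 fell with GW3965 in Villin-Cre mice, 5 in floxed mice and none rose. The release factor gene Etf1 was one of them, at 53.8 ± 4.32 CPM with GW3965 against 78.9 ± 8.75 CPM with vehicle in floxed mice.

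In subfamily G, Abcg2 had 237, 199 and 223 CPM in Villin-Cre mice given GW3965 and 191, 195 and 184 CPM with vehicle, and 222, 221 and 236 CPM in floxed mice given GW3965 and 117, 127 and 107 CPM with vehicle. The 3 libraries of floxed mice given vehicle lay below all 9 others. Abcg2 rose with GW3965 by 0.95 ± 0.07 in floxed mice and 0.20 ± 0.07 in Villin-Cre mice, where the call was lost without Villin-Cre GW3965 replicate 1 or 3 or Villin-Cre vehicle replicate 3 (0.15 to 0.19), with an interaction of -0.75 ± 0.10, and was higher by 0.70 in Villin-Cre than in floxed mice given vehicle (0.95 after rescaling). Abcg3, a rodent gene, fell by 0.92 in floxed mice, and Abcg4, a sterol transporter known from brain, by 1.12 in Villin-Cre mice, at 0.656 CPM with GW3965 against 2.13 CPM with vehicle. Of the ABC genes whose symbols have another form, Tap1, which loads peptides for class I antigen presentation, averaged 44.9 ± 0.962 CPM in Villin-Cre mice given GW3965 against 178 ± 6.20 CPM with vehicle, and 111 ± 38.9 CPM in floxed mice given GW3965 against 281 ± 4.24 CPM with vehicle. Cftr, the chloride channel, averaged 129.8 ± 4.82 against 43.8 ± 2.73 CPM in Villin-Cre mice. Of 13 class I loading partners, 7 fell and 2 rose in Villin-Cre mice, and 11 fell and none rose in floxed mice, among them the proteasome subunit Psmb9 (-1.85 and -1.59). Of all genes, 31.1% fell and 21.5% rose with GW3965 in Villin-Cre mice, and 20.9% fell and 14.7% rose in floxed mice. Of 9 receptors and factors known to act on ABC genes, 7 rose and 1 fell with GW3965 in Villin-Cre mice and 4 rose and 2 fell in floxed mice. Among them, Ppara rose by 1.36 and 1.28, the pregnane X receptor gene Nr1i2 by 0.49 and 0.45, and the constitutive androstane receptor gene Nr1i3 by 1.98 in Villin-Cre mice.

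**Figure D4:**
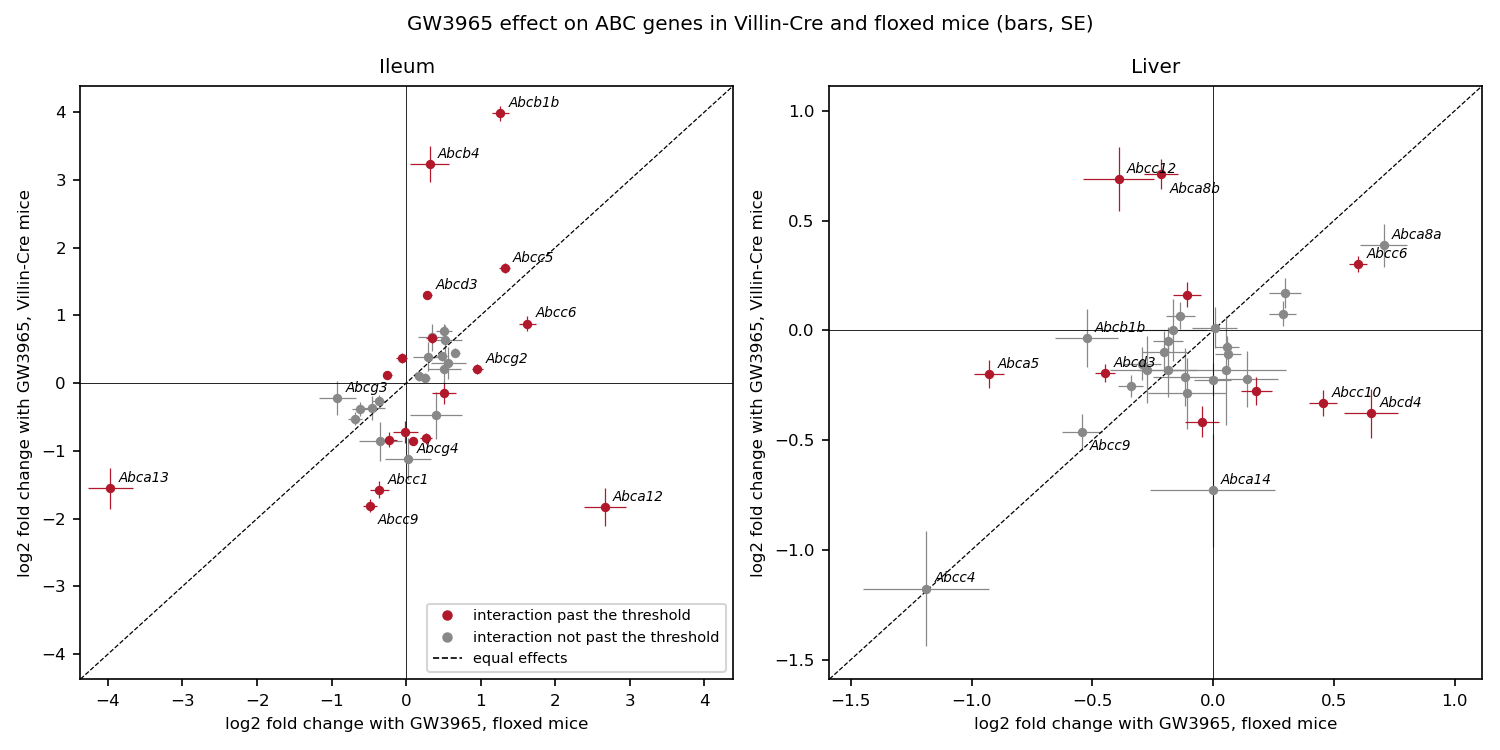
Log2 fold change with GW3965 against vehicle in Villin-Cre mice (vertical) and in floxed mice (horizontal) for the tested members reported by name in ileum (left) and liver (right); bars are SE, the dashed line marks equal effects, and red points have an interaction past the threshold. In ileum Abcb1b (3.98 and 1.26) and Abcb4 (3.23 and 0.32) lie far above the line and Abca12 (-1.83 and 2.66) far below it; in liver Abcc4 (-1.18 and -1.19) lies on it.

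In the liver, where Abca1 was left intact by the design, the members differed more between genotypes than with GW3965. Abcc4 and Abca5 were much higher in Villin-Cre mice, and Abca8a, Abcc6 and Abcd3 lower. Abcc1 and Abcb1b were more than 2 times as high before rescaling, and less than 2 times as high with vehicle after it. With vehicle, 15 members were higher and 11 lower in Villin-Cre than in floxed mice, of 35 tested, where 45.1% and 11.7% of all 17520 genes tested were. With GW3965, 14 were higher and 13 lower, where 40.9% and 15% were. The median of the members was 0.13 with vehicle and 0.01 with GW3965, beside 0.26 and 0.21 over all genes. Rescaling moved the median of all genes by -0.25 and -0.21, and then 11 members were higher and 14 lower with vehicle, and 12 higher and 18 lower with GW3965. GW3965 raised 4 members and lowered 8 in Villin-Cre mice, where 2.85% and 9.03% of all genes were, and raised 6 and lowered 10 in floxed mice, where 10.4% and 19.7% were. After rescaling the split in Villin-Cre mice was 6 higher and 4 lower. The interaction passed for 5 members upward and 5 downward, where 10.2% and 9.7% of all genes did, and for 11 downward without floxed GW3965 replicate 1, the library apart. Without floxed vehicle replicate 3, 6 members were lower with GW3965 in floxed mice. With the close libraries averaged, Abca5 was higher in Villin-Cre mice given vehicle, and with GW3965 6 members were higher (Abca5, Abcb1b, Abcc1, Abcc4, Abcc12 and Abce1) and 4 lower (Abca8a, Abcb10, Abcc6 and Abcd3). Of all genes, 0.685% were then higher and 0.491% lower with vehicle and 6.95% and 2.59% with GW3965. Limma then called no member for GW3965 in Villin-Cre mice, in floxed mice (where 0.0171% of all genes were higher and 0.0171% lower) or for the interaction, with 1, 4 and 2 members at an unadjusted p under 0.05.

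Abcc4 had the largest genotype difference of the members tested in liver. With vehicle it stood at 191, 188 and 197 CPM in Villin-Cre against 25.1, 25.3 and 27.6 CPM in floxed mice, and at 81.2, 87.0 and 85.9 CPM in Villin-Cre mice given GW3965 against 5.52, 15.2 and 16.1 CPM in floxed mice given GW3965. All 6 libraries of Villin-Cre mice lay above all 6 of floxed mice, and within each genotype the GW3965 libraries lay below those with vehicle. Abcc4 was higher in Villin-Cre mice by 2.86 ± 0.26 with vehicle (2.58 after rescaling, limma adjusted p = 4.6e-07) and by 2.87 ± 0.26 with GW3965 (2.64 after rescaling). GW3965 lowered it by 1.18 ± 0.26 in Villin-Cre and 1.19 ± 0.26 in floxed mice, with an interaction of 0.01 ± 0.37. Without the library apart, whose 5.52 CPM was the lowest of its group, the fall in floxed mice was -0.71 and the interaction -0.46, past the threshold. Bile duct markers fell with GW3965 as well, 5 of 6 in Villin-Cre and 5 of 6 in floxed livers, with sums of 139.8 to 148 CPM with GW3965 against 278 to 284 CPM with vehicle in Villin-Cre mice, and 48.6 to 71.9 against 121 to 123 CPM in floxed mice. Over all genes, 9.03% were lower in Villin-Cre and 19.7% in floxed livers, and after rescaling 4 and 5 of the 6 markers were. Other lists fell too, in Villin-Cre and floxed livers 5 and 3 of 6 hepatic stellate cell markers and 0 and 6 of 6 endothelium markers. None of the bile duct markers was at 0 throughout a group, and their part in the fall of Abcc4 was not tested. The corresponding ileal difference between genotypes was 0.01 with vehicle, not past the threshold, and -0.59 with GW3965 (-0.32 after rescaling).

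Promoters of Abcc4, Abca5 and Abca8a are printed as those of the members with the largest rises and the largest fall between genotypes in liver. They lie at chr14:118706220-118706469 (minus strand), chr11:110337717-110337966 (minus strand) and chr11:110095938-110096187 (minus strand) in GRCm38.p6, as 250 bases before the RefSeq start written 5′ to 3′ on the strand of the gene.
Abcc4: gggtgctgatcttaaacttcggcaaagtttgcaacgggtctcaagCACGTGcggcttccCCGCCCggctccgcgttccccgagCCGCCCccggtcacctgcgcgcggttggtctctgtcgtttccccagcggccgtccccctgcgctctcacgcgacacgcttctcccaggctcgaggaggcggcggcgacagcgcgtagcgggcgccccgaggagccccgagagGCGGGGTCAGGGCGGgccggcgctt
Abca5: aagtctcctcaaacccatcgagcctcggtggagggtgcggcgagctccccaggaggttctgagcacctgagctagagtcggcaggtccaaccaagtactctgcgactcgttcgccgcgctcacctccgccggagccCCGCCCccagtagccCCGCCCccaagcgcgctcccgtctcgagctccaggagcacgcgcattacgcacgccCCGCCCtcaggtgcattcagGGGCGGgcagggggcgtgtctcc
Abca8a: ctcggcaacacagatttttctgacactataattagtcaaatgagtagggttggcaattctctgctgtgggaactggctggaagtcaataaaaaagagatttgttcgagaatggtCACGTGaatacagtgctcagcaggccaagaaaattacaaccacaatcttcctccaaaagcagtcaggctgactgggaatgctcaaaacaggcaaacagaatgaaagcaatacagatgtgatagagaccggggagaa

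Capitals mark the same motifs on either strand. The Abcc4 promoter holds 3 GC boxes (GGGCGG, or CCGCCC on the other strand), a TGACNNNGC core read on the other strand, next to the last of them, and a CACGTG. That of Abca5 holds 4 GC boxes and none of the other motifs, and that of Abca8a, with 43.2% G and C against 72.0% for Abcc4, a CACGTG alone. None of these windows holds AGGTCA. Among the members TGACNNNGC was found in entries of Abcc4 and Abcc10, and CACGTG in entries of Abca8a, Abca15, Abcc4 and Abcf1.

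Abca5, a member found in lysosomes, had 59.0, 55.5 and 56.4 CPM in Villin-Cre mice given GW3965 against 9.79, 9.30 and 10.4 CPM in floxed mice given GW3965, and with vehicle 65.1, 62.5 and 69.0 CPM in Villin-Cre against 19.5, 19.4 and 18.4 CPM in floxed mice. No groups overlapped. The genotype difference was 1.75 ± 0.06 with vehicle (limma adjusted p = 4.6e-11) and 2.48 ± 0.06 with GW3965 (adjusted p = 7.2e-13), or 1.47 and 2.25 after rescaling. Its neighbours on chromosome 11 were lower or not called, with vehicle. Abca8a had 20.9, 25.9 and 23.2 CPM in Villin-Cre mice given GW3965 against 90.3, 69.9 and 71.7 CPM in floxed mice given GW3965, and with vehicle 17.5, 19.1 and 16.5 CPM in Villin-Cre against 46.8, 48.1 and 45.8 CPM in floxed mice. Abca8a was lower in every Villin-Cre library, by 1.38 ± 0.10 with vehicle and 1.70 ± 0.10 with GW3965, and rose with GW3965 by 0.71 in floxed mice and 0.39 in Villin-Cre mice, the second call being lost without Villin-Cre GW3965 replicate 2 or 3 or Villin-Cre vehicle replicate 1 or 3 (0.31 to 0.39). Abca8b was lower in Villin-Cre mice by 1.19 with vehicle and 0.26 with GW3965, and rose with GW3965 by 0.71 in Villin-Cre mice, with an interaction of 0.93 ± 0.10. Abca6 was lower by 0.20 in Villin-Cre mice given vehicle, and Abca9 by 0.34 in those given GW3965, a call lost without Villin-Cre GW3965 replicate 1 or 3 or floxed GW3965 replicate 2 or 3 (-0.36 to -0.21). Abca2 and Abca3 were lower in both genotype comparisons, by 0.24 and 0.39 with vehicle, and Abca4 and Abca14 passed no test in liver. Of the 10 members of subfamily A tested in liver, 2 were higher and 5 lower in Villin-Cre mice with vehicle, where 45.1% and 11.7% of all genes were. Abca5 and Abca7 (0.80) were the higher ones, and the counts of members after rescaling were 2 and 5.

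Of the 7 multidrug resistance proteins of subfamily C, 5 were higher and 1 lower in Villin-Cre livers with vehicle, where 45.1% and 11.7% of all genes were, and 4 higher and 2 lower with GW3965, where 40.9% and 15% of all genes were, with medians of 0.48 and 0.74. After rescaling the counts were 4 against 1 and 4 against 3. Abcc1 had 25.4, 25.6 and 26.9 CPM in Villin-Cre mice on vehicle against 9.77, 13.1 and 9.67 CPM in floxed mice on vehicle, a difference of 1.24 ± 0.12 (0.96 after rescaling), and the same 1.24 with GW3965. Abcc6, which is expressed foremost in hepatocytes, had 126, 130.0 and 129.6 CPM in Villin-Cre mice on vehicle against 248, 251 and 250.1 CPM in floxed mice on vehicle, and 157, 160.1 and 159 CPM against 387, 372 and 377 CPM with GW3965. Abcc1 was thus higher and Abcc6 lower in all 6 Villin-Cre libraries than in all 6 floxed ones. Abcc6 was lower by 0.95 ± 0.04 with vehicle and 1.25 ± 0.04 with GW3965, and rose with GW3965 by 0.30 in Villin-Cre and 0.60 in floxed mice. Abcc5 was higher by 1.12 and 0.74 in Villin-Cre mice with vehicle and GW3965. Abcc12, a member of little known function, had 6.64, 6.16 and 7.84 CPM in Villin-Cre mice given GW3965 against 2.30, 1.63 and 2.08 CPM in floxed mice given GW3965, a difference of 1.56 ± 0.15, and its smaller difference with vehicle, 0.48, was not called after rescaling (0.23). Abcc3 was higher by 0.46 with vehicle, and Abcc10 was lower by 0.65 with GW3965. Abcc9 was higher by 0.45 and 0.54 in Villin-Cre mice and fell with GW3965 by 0.46 and 0.54 in Villin-Cre and floxed mice, and its difference with vehicle was not called after rescaling (0.17).

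Markers of cell types moved with these genotype differences. With vehicle, 7 of 8 hepatocyte markers were lower in Villin-Cre livers, with sums of 54564 to 55455 CPM in Villin-Cre against 81122 to 82980.3 CPM in floxed mice, and 59813 to 61064 against 58187 to 69320.5 CPM with GW3965. All 6 bile duct markers were higher (278 to 284 against 121 to 123 CPM with vehicle), as were 6 of 6 macrophage markers (843 to 857 against 451 to 452 CPM) and 6 of 6 hepatic stellate cell markers (572 to 579.8 against 360.3 to 366 CPM). After rescaling 4, 5 and 5 of these were higher, and 7 hepatocyte markers lower. None of these markers was at 0 throughout a group. Over all genes, 45.1% were higher and 11.7% lower with vehicle. Other lists moved too. Fibroblast markers were higher for 6 and lower for 1 of 7, and smooth muscle and pericyte markers higher for 7 of 9. Crypt and dividing cell markers were lower for 4 of 4. The part of any marker list in the results for Abcc1, Abcc4, Abcc6, Abca5 and Abca8a was not tested.

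**Figure D5:**
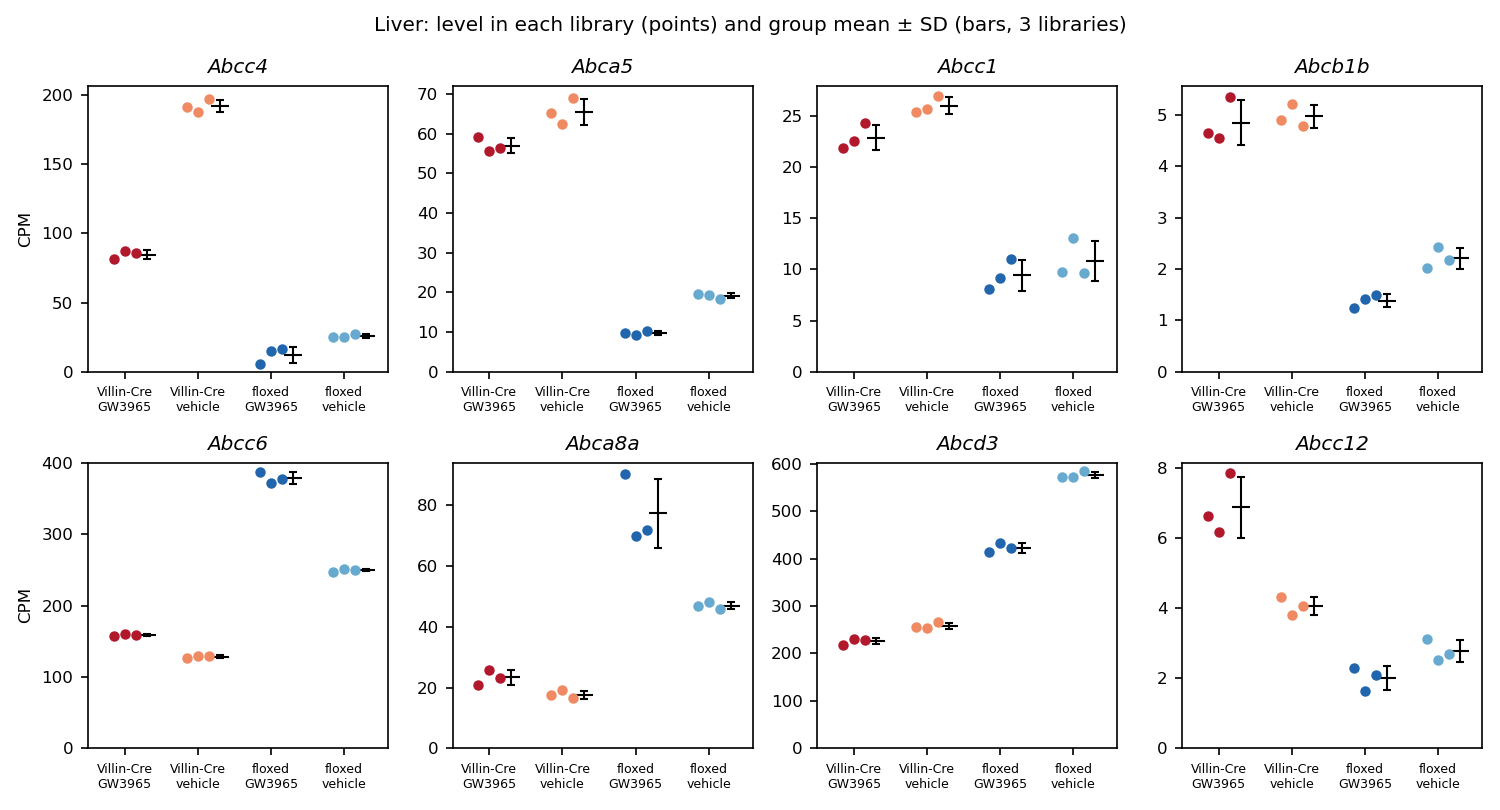
CPM of 8 members in each liver library (points) with the group mean ± SD (n = 3), each panel starting at 0. Abcc4, Abca5, Abcc1 and Abcb1b are higher, and Abcc6, Abca8a and Abcd3 lower, in both Villin-Cre groups than in both floxed groups, and Abcc12 is highest in Villin-Cre mice given GW3965.

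The plasma membrane members of subfamily B differed from each other in liver. Abcb1b had 4.65, 4.55 and 5.36 CPM in Villin-Cre mice given GW3965 against 1.25, 1.42 and 1.49 CPM in floxed mice given GW3965, and 4.91, 5.22 and 4.78 CPM against 2.03, 2.43 and 2.18 CPM with vehicle. All Villin-Cre libraries lay above all floxed ones, by 1.505 ± 0.132 with GW3965 and 1.01 ± 0.13 with vehicle (1.31 and 0.76 after rescaling). Its level was 16.1 to 18.7%, 13.9 to 15.6%, 15.7 to 24.1% and 16.7 to 20.4% of that of Abcb1a in Villin-Cre mice given GW3965, Villin-Cre mice given vehicle, floxed mice given GW3965 and floxed mice given vehicle, a larger share than in ileum. In floxed mice GW3965 lowered hepatic Abcb1b by 0.52, whereas it raised the ileal level. Abcb4, at 571 ± 3.80 CPM in Villin-Cre mice given GW3965, 509.9 ± 0.939 CPM in those given vehicle, 469 ± 49.7 CPM in floxed mice given GW3965 and 504 ± 6.54 CPM in those given vehicle, stayed within a narrow range. The genotypes differed by 0.29 with GW3965 (0.05 after rescaling, not called) and 0.02 with vehicle (-0.27 after rescaling, called), and the interaction was 0.27 ± 0.08, a call lost without Villin-Cre GW3965 replicate 1, 2 or 3, Villin-Cre vehicle replicate 1, 2 or 3, floxed GW3965 replicate 2 or 3 or floxed vehicle replicate 1, 2 or 3 (0.23 to 0.28). Of 6 genes that act with Abcb4 in bile formation, 1 was higher and 3 were lower in Villin-Cre livers with vehicle, where 45.1% and 11.7% of all genes were. Among the 6, Nr1h4, the bile acid receptor FXR, averaged 59.7 ± 1.73 CPM in Villin-Cre against 104 ± 6.66 CPM in floxed mice. In ileum 5 of the 6 rose with GW3965 in Villin-Cre mice, where 21.5% of all genes did.

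Of the 4 members of subfamily D, 3 were lower and 1 higher in Villin-Cre livers with vehicle, and all 4 lower with GW3965, with the same counts after rescaling. Of all genes, 11.7% were lower and 45.1% higher with vehicle, and 15% and 40.9% with GW3965. Rescaling took the number of all genes called lower from 2057 to 3900 with vehicle and from 2636 to 4374 with GW3965. Abcd3 had 255, 254 and 265 CPM in Villin-Cre mice on vehicle against 572, 572 and 584 CPM in floxed mice on vehicle, and 218, 230.3 and 227 CPM against 413, 433 and 422 CPM with GW3965. It was lower by 1.16 ± 0.04 with vehicle (limma adjusted p = 3.8e-11) and 0.91 ± 0.04 with GW3965, or -1.44 and -1.14 after rescaling, and every Villin-Cre library lay below every floxed one. Abcd2 was lower by 0.52 with vehicle and 0.42 with GW3965, the second call being lost without Villin-Cre GW3965 replicate 1, 2 or 3 or floxed GW3965 replicate 2 or 3 (-0.44 to -0.28). Abcd4 was higher by 0.69 with vehicle and lower by 0.34 with GW3965, at 15.2, 16.1 and 17.9 CPM in Villin-Cre mice on vehicle against 9.67, 10.7 and 9.60 CPM in floxed mice on vehicle, with an interaction of -1.03 ± 0.16. The call of Abcd4 with GW3965 was lost without Villin-Cre GW3965 replicate 2 or floxed GW3965 replicate 2 or 3 (-0.31 to -0.27). Of 13 partners in peroxisomal fatty acid oxidation, 10 were lower and 1 higher with vehicle and 9 lower and none higher with GW3965, and 12 and 12 were lower after rescaling. Of 8 hepatocyte markers, 7 were lower in Villin-Cre livers with vehicle. With GW3965, 5 were lower and 1 higher, and the summed levels overlapped between genotypes. Their part in the result was not tested.

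Of the mitochondrial members, Abcb10 was lower in Villin-Cre livers, at 24.5 ± 0.795 CPM in Villin-Cre against 43.1 ± 1.42 CPM in floxed mice given GW3965 and 21.8 ± 1.76 CPM against 35.0 ± 1.77 CPM with vehicle, by 0.80 and 0.67. Abcb6 and Abcb8 passed no genotype test before rescaling. Abcb9 passed none of the 5 tests in liver before rescaling. Of 14 genes of haem and iron-sulphur cluster synthesis, 6 were lower and 3 higher with vehicle, where 11.7% and 45.1% of all genes were. After rescaling 9 were lower and 0 higher. Alad, an early enzyme of haem synthesis, averaged 83.2 ± 2.82 CPM in Villin-Cre against 139.5 ± 1.62 CPM in floxed mice. Among the ribosome-acting members, all 4 were higher in Villin-Cre livers with vehicle and 3 with GW3965, where 45.1% and 40.9% of all genes were. After rescaling 2 and 3 were higher, and Abcf3 was lower with GW3965 (-0.18). Abce1 averaged 83.9 ± 4.23 CPM in Villin-Cre against 47.9 ± 0.949 CPM in floxed mice given GW3965 and 99.9 ± 1.97 CPM against 60.9 ± 2.62 CPM with vehicle, differences of 0.80 and 0.71. Of 8 tested genes of ribosome rescue and recycling, 7 were higher with vehicle and 5 with GW3965, beside the same 45.1% and 40.9% of all genes, and 2 and 5 after rescaling. Abcg2 was lower by 0.49 and 0.35 in Villin-Cre livers with vehicle and GW3965 and fell by 0.29 with GW3965 in floxed mice, a call lost without floxed vehicle replicate 3 (-0.24), and Abcg3 was higher by 0.90 and 0.81. Tap1 averaged 74.0 ± 2.57 CPM in Villin-Cre against 32.2 ± 1.18 CPM in floxed mice given vehicle, a difference of 1.19, where in ileum it was -0.66, not called after rescaling (-0.42). Of 13 class I loading partners in liver, 7 were higher and 2 lower with vehicle, where 45.1% and 11.7% of all genes were, and 3 and 3 after rescaling.

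GW3965 itself changed few members strongly in liver. Besides Abcc4, the fold was at least 2 for none of the members called, in either genotype, where at that size 0.183% of all genes were higher and 0.451% lower in Villin-Cre mice, and 0.919% and 1.59% in floxed mice. Abca5 fell with GW3965 by 0.93 ± 0.06 in floxed mice, and its change in Villin-Cre mice, -0.20, did not pass the test, with an interaction of 0.73 ± 0.09 (limma adjusted p = 7.1e-05). Abcc12 averaged 6.88 ± 0.868 CPM in Villin-Cre mice given GW3965 against 4.06 ± 0.247 CPM with vehicle, and 2.01 ± 0.343 CPM in floxed mice given GW3965 against 2.78 ± 0.303 CPM with vehicle. It rose by 0.69 in Villin-Cre mice, was not called in floxed mice (-0.39), and had an interaction of 1.08 ± 0.21. Abcc10 and Abcd4 were higher with GW3965 in floxed mice and lower in Villin-Cre mice. Abcc10 changed by -0.33 in Villin-Cre and 0.45 in floxed mice, with an interaction of -0.79 ± 0.08, and Abcd4 by -0.38 and 0.66. The fall of Abcd4 in Villin-Cre mice was not called after rescaling (-0.28) and was lost without Villin-Cre GW3965 replicate 1, 2 or 3, Villin-Cre vehicle replicate 1, 2 or 3 or floxed vehicle replicate 1, 2 or 3 (-0.43 to -0.31). Abcc5 fell by 0.42 in Villin-Cre mice and was not called in floxed mice (-0.05), against its rise in ileum. Abcc3 fell by 0.28 in Villin-Cre mice, a call not kept after rescaling (-0.18). Abcd3 fell by 0.45 and Abce1 by 0.34 in floxed mice, and their smaller falls in Villin-Cre mice (-0.20 and -0.25) were not called after rescaling (-0.10 and -0.16). In floxed mice Abca2 rose by 0.29 and Abcb10 by 0.30. Without the library apart, floxed GW3965 replicate 1, no call of a member was lost in liver, while in floxed mice Abcc3 (0.28), Abca3 (0.16), Abca9 (0.30), Abcf2 (-0.31), Abcc12 (-0.48) and Abcb4 (-0.19) were called as well, and in Villin-Cre mice 6 members were, Abca5 (-0.20) among them. Of the 9 receptors and factors that act on ABC genes, 2 rose and 2 fell with GW3965 in floxed livers, where 10.4% and 19.7% of all genes did. In Villin-Cre livers 0 rose and 2 fell, where 2.85% and 9.03% of all genes did. After rescaling, 6 rose and 1 fell in floxed livers, and 0 rose and 1 fell in Villin-Cre livers. Nr1i3 was among them, at 50.3 ± 1.78 CPM in Villin-Cre mice given GW3965 against 82.96 ± 1.03 CPM with vehicle, and 129 ± 14.0 CPM in floxed mice given GW3965 against 74.2 ± 2.45 CPM with vehicle.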

How the data were processed

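The deposited tables hold log2 values per gene and library for ileum and for liver. The submitters' processing notes name featureCounts 1.4.6-p5, Subread, STAR 2.5.1a, bcl2fastq and, as build, GRCm38, while the sources used here give no log2 formula, annotation release or strand setting. The lowest log2 value (-5.62) is shared by all libraries and stands for 0 reads. Subtracting it on the linear scale gave CPM, and 100% of the values under 100 reads came out whole (within 0.05 reads). Each table lists 40757 entries for 40481 genes, and 276 repeated entries were dropped. Depth was 17.0 to 24.2 M reads in ileum and 26.5 to 32.3 M in liver, and 3 reads, the limit given for a count of 0, cover counting error only.

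limma 3.58.1 in R 4.3.3 was fitted per tissue to all 12 libraries on log2(CPM + 0.5), with a mean-variance trend, for genes of at least 0.5 CPM in 3 libraries. Benjamini-Hochberg adjustment ran over all genes tested, at a threshold of 0.05, and the pipeline was tested on simulated data. Groups, GW3965 and genotype came from the labels. Per comparison, up to 8 members higher and 8 lower, with at least 1 CPM, and Abca13 are described by library or mean, and up to 4 genes of a partner list by smallest p. Some genes are counted in these lists but not reported here by name. The members and lists were chosen with earlier results of these data known. Alternatives were no filter, a pseudocount of 2, scaling by median gene ratios, only the groups compared, a replicate block, voom on recovered reads, close libraries averaged, and each library left out. Libraries of a group counted as close where the variance between them was under 5 times the Poisson variance. Positions are from GENCODE M21 (GRCm38), in which all 43 members were found by gene ID, and promoters from RefSeq (GRCm38.p6).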

Additional observations from a re-analysis of the deposited data

Results flagged for a closer look

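The effect of GW3965 differed between the genotypes in ileum for 15 of the members described, by limma's interaction (the log2 change of Villin-Cre mice less that of floxed mice). Of 38 members tested there, 10 passed upward and 10 downward, where 14.6% and 18.4% of all genes did. In liver 5 of 35 passed upward and 5 downward, where 10.2% and 9.7% of all genes did. Positive interactions of members described in ileum belonged to Abcb4 (2.92), Abcb1b (2.72), Abca13 (2.41), Abcd3 (1.02), Abcf3 (0.43), Abcc5 (0.37) and Abcf1 (0.37). Negative ones belonged to Abca12 (-4.49), Abcc9 (-1.32), Abcc1 (-1.21), Abca2 (-1.07), Abcc3 (-0.94), Abcg2 (-0.75), Abcc6 (-0.75) and Abca8a (-0.71). In liver the positive interactions were those of Abcc12 (1.08), Abca8b (0.93), Abca5 (0.73), Abcb4 (0.27) and Abcd3 (0.25), and the negative ones those of Abcd4 (-1.03), Abcc10 (-0.79), Abcc3 (-0.45), Abcc5 (-0.37) and Abcc6 (-0.30). The call of Abca8a in ileum was lost without Villin-Cre GW3965 replicate 2 or 3, Villin-Cre vehicle replicate 1 or 3, floxed GW3965 replicate 1 or floxed vehicle replicate 1 or 3 (-0.70 to -0.50), and that of Abcb4 in liver was lost without any 1 library other than floxed GW3965 replicate 1 (0.23 to 0.28). None of these interactions passed the threshold with the close libraries averaged, when 12 members in ileum and 2 in liver had an unadjusted p under 0.05.

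Some members passed the threshold in both tissues in opposite directions, with all 3 libraries of a group on one side of the other group in each tissue. The difference between tissues was not tested. The share of all genes that meet this rule was not computed, so opposite directions cannot be read as particular to the members. With GW3965 against vehicle in Villin-Cre mice, Abcc5 changed by 1.69 in ileum and -0.42 in liver and Abcd3 changed by 1.30 in ileum and -0.20 in liver. With GW3965 against vehicle in floxed mice, Abcb1b changed by 1.26 in ileum and -0.52 in liver and Abcg2 changed by 0.95 in ileum and -0.29 in liver. Between Villin-Cre and floxed mice given GW3965, Abcc1 changed by -1.40 in ileum and 1.24 in liver and Abcd3 changed by 0.81 in ileum and -0.91 in liver. Between Villin-Cre and floxed mice given vehicle, Abce1 changed by -0.80 in ileum and 0.71 in liver and Abcg2 changed by 0.70 in ileum and -0.49 in liver. After rescaling, the hepatic change of Abcd3 in Villin-Cre mice was -0.10 and was not called. In liver the call of Abcg2 in floxed mice was lost without floxed vehicle replicate 3 (-0.24). With the close libraries averaged, none of these members kept a call in both tissues for the comparison named.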

How the results depend on the processing

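Of 146 results of members checked under each alternative, no call reversed direction. Outside them, 2 called differences between genotypes with vehicle changed sign after rescaling and were no longer called, ileal Abcd3 (-0.21, and 0.04 rescaled) and hepatic Abcf3 (0.23, and -0.06 rescaled). Differences near 0 that were not called could also change sign, such as hepatic Abcb4 between genotypes with vehicle (0.02, and -0.27 rescaled) and the hepatic Abcc4 interaction (0.01, and -0.46 without floxed GW3965 replicate 1). Averaging the close libraries left 4 higher and 3 lower in ileum for GW3965 in Villin-Cre mice, 2 higher and 1 lower for GW3965 in floxed mice, 0 higher and 0 lower between genotypes with vehicle, 2 higher and 2 lower with GW3965 and 0 higher and 0 lower for the interaction. In liver the counts, in the same order, were 0 higher and 0 lower, 0 higher and 0 lower, 1 higher and 0 lower, 6 higher and 4 lower and 0 higher and 0 lower. By limma at an unadjusted p under 0.05 the comparisons without a call had 6 (ileum, genotypes with vehicle), 12 (ileum, interaction), 1, 4 and 2 members (liver, GW3965 in Villin-Cre mice, in floxed mice and interaction). That alternative has fewer units. Rescaling by the median of gene ratios gave 13 higher and 6 lower in ileum between genotypes with vehicle, 16 higher with GW3965, and 4 lower in liver for GW3965 in Villin-Cre mice. Fitting only the groups compared gave 6 lower in liver for GW3965 in floxed mice and 13 lower in Villin-Cre mice. The cause of these shifts was not tested.

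Leaving out 1 library at a time moved the ileal genotype counts with vehicle over 3 to 6 higher and 9 to 14 lower, the liver count lower with GW3965 in floxed mice over 6 to 13, and that of negative liver interactions over 5 to 11. Of the 146 results, the threshold was no longer passed by 120 with close libraries averaged, by 7 after rescaling, by 7 without the filter on low values, by 2 with voom on recovered reads, by 0 with a pseudocount of 2, by 4 of the 120 that could be fitted with only the groups compared, and in 58 of 1752 values with 1 library left out. Voom on recovered reads called 2490 to 9972 genes and 10 to 27 members per comparison.

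The replicate numbers showed no sign of pairing within a tissue. The correlation of deviations over 18 same-numbered pairs was -0.04 to 0.05 in ileum and -0.03 to 0.03 in liver, and none exceeded 0.1. Where the spread within a group is technical, this check could not reveal a pairing, and pairing between ileum and liver libraries was not examined. With the replicate number as a block, the counts moved by at most 1 member, to 14 higher for GW3965 in floxed ileum, 15 lower between genotypes given GW3965 in ileum and 11 lower for GW3965 in floxed liver, and no described call was lost. Depth limits Abca12, Abca13, Abcb4 and Abcg4 in ileum and Abcc12 and Abcb1b in liver, which stood at a few CPM or less in some groups, and no member at 0 reads can be called absent.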
